A study of Homo sapiens with 11 samples.

Results

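The circadian clock was represented by 6 core genes, which were followed across every deposited peak list of a chromatin immunoprecipitation sequencing (ChIP-seq) study of hormone-treated endometrial cancer cells. The genes, PER1, PER2, PER3, NR1D1, BHLHE40 and CRY2, were chosen by name with earlier results of these lists known, and their members in the data are the peaks within 50 kb of each gene body on hg19. This rule took 96 of the 90458 peaks in the 8 lists. Only peaks called by the authors can enter, so the presence of a peak is itself what chose the members, and the counts below are descriptions without a test.

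The cells were Ishikawa, an established human endometrial adenocarcinoma line, kept before treatment in medium with charcoal-stripped serum and no phenol red, which removes most steroid from the medium. Treatments were the vehicle DMSO, 10 nM estradiol, 100 nM dexamethasone (a synthetic glucocorticoid), and the 2 hormones given together, named the combination below. Estrogen receptor (ER) and glucocorticoid receptor (GR) were mapped after 1 h, and acetylated lysine 27 of histone H3 (H3K27ac), found at active promoters and enhancers, after 8 h according to the treatment labels, although the treatment protocol of those samples names 1 h. ER was available with estradiol and with the combination, GR with dexamethasone and with the combination, and H3K27ac with all 4 treatments, 1 library each, so no value has a replicate check. ER and GR binding without hormone was not analysed here.

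Libraries held 5206574 to 8508828 usable tags for the receptors and 9034395 to 18508574 for H3K27ac. The dexamethasone H3K27ac library was the shallowest of its kind, with 9034395 usable tags against 9657258 with the combination, 10852521 with estradiol and 18508574 with vehicle. It also had the most duplicates, 33% against 18% to 22% in the other H3K27ac libraries, and the fewest peaks, 15192 against 20873 to 23888. This bears on every H3K27ac call reported as missing with dexamethasone, and its part in those results was not tested.

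The mammalian clock is a feedback loop of transcription. CLOCK and BMAL1 bind E-box sequences and switch on the PER and CRY genes, whose proteins return to the nucleus and repress CLOCK and BMAL1. NR1D1 encodes REV-ERB alpha, a nuclear receptor that represses the BMAL1 gene, and BHLHE40 encodes DEC1, an E-box binding repressor. Glucocorticoids reset clocks in peripheral tissues, and PER1 and PER2 are known as direct target genes of GR in other cells.

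Receptor sites were called at 2 of the 6 genes: GR at PER1, and ER at BHLHE40. Of genome tiles as wide as the median window (124 kb), 5.54% held a dexamethasone GR site and 9.06% an estradiol ER site. The promoters of PER1 and BHLHE40, the 250 bases before the gene start, are shown because they are the ones next to the receptor sites. They come from RefSeq (GRCh38.p14, minus strand at chr17:8152405-8152654 for PER1, plus strand at chr3:4979187-4979436 for BHLHE40) and are printed 5′ to 3′, with matches to the searched motifs in capitals.
PER1: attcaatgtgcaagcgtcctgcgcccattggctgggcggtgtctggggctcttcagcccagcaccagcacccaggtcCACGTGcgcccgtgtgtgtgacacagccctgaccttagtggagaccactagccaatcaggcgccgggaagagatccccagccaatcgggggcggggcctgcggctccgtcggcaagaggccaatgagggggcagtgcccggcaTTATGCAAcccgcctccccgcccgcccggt
BHLHE40: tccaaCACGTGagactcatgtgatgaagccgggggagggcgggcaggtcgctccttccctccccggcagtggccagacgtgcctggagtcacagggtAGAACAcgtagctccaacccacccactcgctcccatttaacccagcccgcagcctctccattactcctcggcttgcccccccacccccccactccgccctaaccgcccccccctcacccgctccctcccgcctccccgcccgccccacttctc

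In the PER1 promoter the capitals mark an E-box, CACGTG, which begins 173 bases before the gene start, and a D-box, TTATGCAA, which begins 30 bases before it. D-boxes are bound by the clock output factors DBP, TEF and HLF. In the BHLHE40 promoter they mark an E-box that begins 245 bases before the start and a single GR core motif, AGAACA, at 153 bases. Of 35116 RefSeq promoter windows of this length, 6.34% held the E-box, 0.792% the D-box TTATGCAA and 12.4% the GR core motif, counting both strands. PER3 was the only other gene with a match, to the D-box TTATGTAA at 177 bases before its first start, which 0.834% of windows held. PER2, NR1D1 and both starts of CRY2 had no match. The palindromic GR element (AGAACA, 3 bases of any kind, then TGTTCT) and the corresponding ER element (AGGTCA and TGACCT with the same spacing) were in none of the 8 windows of the 6 genes. Each was held by only 1 of the 35116 windows (0.00285%), so its absence from 8 windows says nothing particular about these genes. These matches describe the letters and are not binding sites, and the receptor peaks lie outside these windows by their hg19 distances given below. The sequence under the peaks was not analysed here.

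PER1, on chromosome 17 from 8043788 to 8055753 on the minus strand, carried a pair of GR sites that flanked its start. With dexamethasone, a site at 8055136 to 8055323 had its summit 526 bp inside the gene, and a site at 8057659 to 8057936 had its summit 2037 bp upstream. Both were called again with the combination, at 8055151 to 8055313 and at 8057690 to 8057920. The summits of the 2 lists differed by 5 bp at the site inside the gene and by 7 bp at the upstream site. No ER site was called in the PER1 window in either ER list, and the nearest one lay 788 kb from the gene.

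The upstream PER1 site stood near the top of both GR lists. Its fold enrichment, the authors' ratio of ChIP pileup to local control background, was 70.3 with dexamethasone and 53.6 with the combination. Its rank by the authors' −log10 q was 4 of 1815 sites with dexamethasone (254) and 20 of 1628 with the combination (173). The site inside the gene had a fold enrichment of 45.8 with dexamethasone (rank 43, −log10 q of 146) and 27.5 with the combination (rank 189, −log10 q of 70.9). The medians of these lists were 13.0 and 13.5. Within each list the upstream site was thus the stronger of the pair, by 1.54 times with dexamethasone and 1.95 times with the combination. Values of the 2 lists are given side by side only, because library scaling differed between them.

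**Figure D1:**
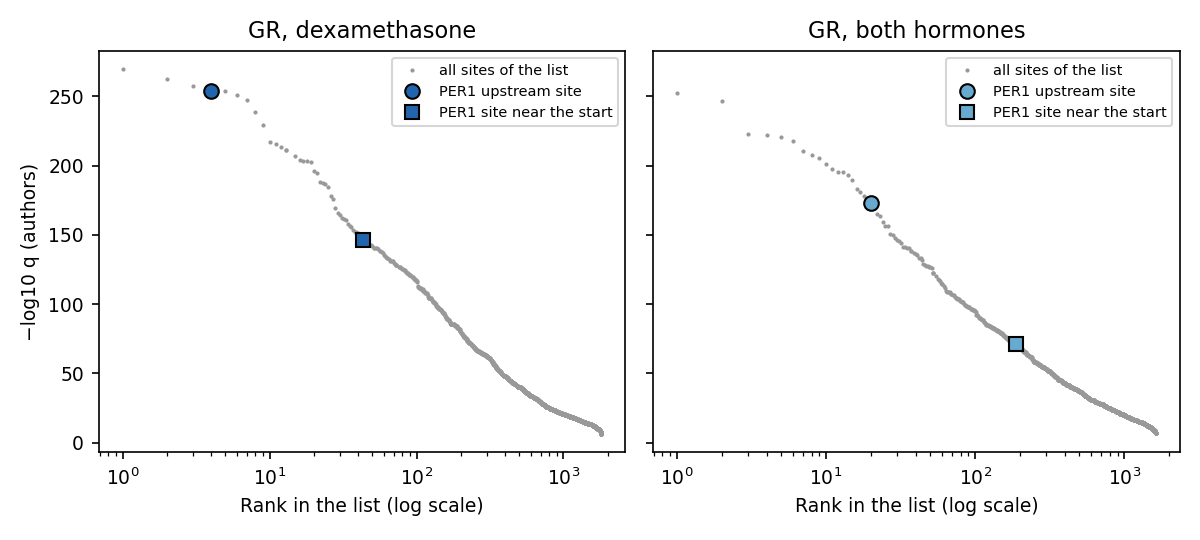
All GR sites of the dexamethasone list (left) and of the combination list (right), by rank on a log scale against the authors' −log10 q; each grey point is a site, and the circle and square mark the PER1 sites. The PER1 sites stand at ranks 4 and 43 with dexamethasone and at ranks 20 and 189 with the combination.

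Both PER1 sites were called with and without added estradiol. Both of the 2 dexamethasone sites were also combination sites, where 56.8% of all dexamethasone GR sites were, and 96.0% of the strongest 25% of that list, to which both PER1 sites belong. Neither overlapped an ER site of the combination (background 20.7%) or of estradiol (20.1%). The summits of the pair lay 2563 bp apart with dexamethasone. Of the strongest 25% of dexamethasone GR sites, 6.62% had another such site within 3 kb, and PER1 held 2 of these 30 sites. The whole list contained 163 neighbouring pairs within 3 kb, and by the −log10 q of the weaker site the PER1 pair ranked 1 among them.

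At the GR sites of PER1, H3K27ac was called after dexamethasone and after the combination, and not with vehicle or estradiol. With dexamethasone, the gene start was flanked by a peak at 8055015 to 8055552 (538 bp wide, fold enrichment 8.75) and a peak at 8057885 to 8058789 (905 bp, 17.3). With the combination, peaks covered 8054887 to 8055619 (733 bp, 8.54) and 8057825 to 8059179 (1355 bp, 19.3). The combination list held a further pair of peaks between these, at 8056053 to 8056360 (308 bp, 7.45) and 8057103 to 8057463 (361 bp, 5.68). Acetylated sequence within 5 kb of the PER1 start came to 0 bp with estradiol, 247 bp with vehicle, 1443 bp with dexamethasone and 2757 bp with the combination. The lists as a whole covered 24.2, 18.0, 12.4 and 20.3 Mb in the same order, so these lengths are not a comparison of level.

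The vehicle peak within 5 kb of the PER1 start, at 8060201 to 8060447, was weak (fold enrichment 6.06, rank 19883 of 21120). It lay 4.45 kb upstream, away from both GR sites. With estradiol the nearest H3K27ac peak to the gene began 9.78 kb upstream. Both GR sites of PER1 thus lay on H3K27ac of dexamethasone and the combination and of neither other list, a pattern shared by 58 dexamethasone GR sites (3.2% of the list). By −log10 q the PER1 sites ranked 1 and 10 among these 58. Their regions were 2 of the 8 dexamethasone H3K27ac regions in the 6 windows, and the only ones absent with vehicle. Over the genome 26.7% of dexamethasone regions were absent with vehicle, and 3.38% of all merged H3K27ac regions had this same pattern.

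The GR summits and the acetylated peaks were placed differently at the 2 sites. Inside the gene, the GR summit lay within the H3K27ac peak in both lists. At the upstream site, the dexamethasone GR summit fell 95 bp outside the acetylated peak of dexamethasone and 35 bp outside that of the combination. In the combination list another H3K27ac peak ended 327 bp away on the other side, so the GR summit lay in a gap between acetylated peaks. GR was mapped at 1 h and H3K27ac at 8 h, so binding at the later time was not measured.

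**Figure D2:**
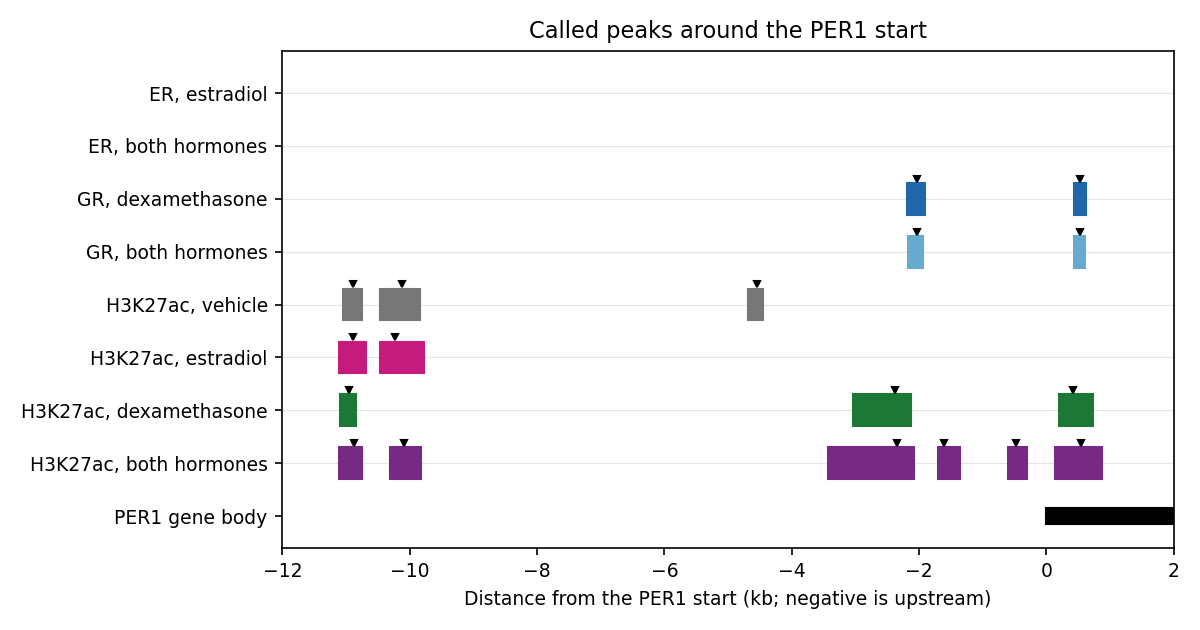
Called peaks around the PER1 start, 1 row per list; boxes span each peak, triangles mark summits, the x axis is the distance from the gene start in kb with upstream on the left, and very narrow peaks are drawn slightly widened. GR and H3K27ac boxes lie on both sides of the start in the dexamethasone and combination rows. At the upstream site they overlap in part and are offset from each other. Within 5 kb of the start, the vehicle row has a single box, between 4.45 and 4.69 kb upstream, and the estradiol row has none.

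The other 8 H3K27ac regions of the PER1 window all lay at least 4.45 kb upstream, and all 8 were vehicle regions. Of these 8, 6 were missing with dexamethasone, 4 with the combination and 1 with estradiol, where over the genome 54.2%, 23.1% and 7.06% of vehicle regions were missing from these lists. Those called with dexamethasone lay 10.7 and 21.0 kb upstream. The protein-coding neighbours within 50 kb of PER1 in the RefSeq order are ALOXE3, HES7, VAMP2, TMEM107 and BORCS6, so these distant regions cannot be assigned to PER1.

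PER2, the other PER gene known as a GR target elsewhere, had no receptor site and no H3K27ac peak with dexamethasone. It lies on chromosome 2 from 239152679 to 239198743 on the minus strand, and the nearest GR site was 307 kb away in both GR lists. The PER2 window held 8 H3K27ac peaks with estradiol, 4 with vehicle, 1 with the combination and 0 with dexamethasone. Near the PER2 start, acetylation was called with estradiol only, in peaks 565 to 1088 bp (fold enrichment 6.81) and 1607 to 1944 bp (6.62) inside the gene. These are weak peaks, ranked 16026 and 23350 of 23888.

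The strongest PER2 region, 239148885 to 239149392, lay beyond the end of the gene. Its fold enrichment was 13.4 with vehicle, 16.8 with estradiol and 8.78 with the combination, and it was not called with dexamethasone. All 4 vehicle regions of PER2 were missing with dexamethasone, 3 of them also with the combination, beside the genome-wide shares of 54.2% and 23.1% for these lists. The nearest dexamethasone peak to PER2 was 73.3 kb from the gene. Neighbouring genes in this window are ILKAP, HES6 and TRAF3IP1.

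PER3, on chromosome 1 from 7844380 to 7905237 on the plus strand, had no peak of any kind. Its 50 kb window was empty in all 8 lists, the sole window for which this was so. The nearest H3K27ac peak was 116 kb from the gene with vehicle, estradiol and the combination and 201 kb with dexamethasone. The nearest GR site lay 226 kb away with dexamethasone and 414 kb away with the combination.

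CRY2 encodes a cryptochrome, the partner of the PER proteins in repression. It lies on chromosome 11 from 45868669 to 45904799 on the plus strand and had no receptor site, the nearest being an ER site 480 kb away in both ER lists. No H3K27ac peak lay in the gene body or within 5 kb of the start in any list. The main acetylated region, 45941639 to 45944956, began 36.8 kb past the end of the gene and was present in all 4 lists, with maximum fold enrichments of 16.7 (vehicle), 26.2 (estradiol), 8.37 (dexamethasone) and 14.4 (combination). A region at 45938971 to 45940394 was called in every list but dexamethasone, and a pair of weak peaks 41.4 and 42.1 kb upstream was called with estradiol alone. SLC35C1, MAPK8IP1, FREY1, PEX16, LARGE2 and PHF21A are the neighbours here.

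NR1D1, on chromosome 17 from 38249037 to 38256978 on the minus strand, had no receptor site and no H3K27ac peak called at its start. No H3K27ac peak was called within 5 kb of its start or in its body in any list. The nearest acetylated region, 38267680 to 38267964, lay 10.7 kb upstream and was a weak peak called with estradiol alone (fold enrichment 4.14). The nearest one called in all 4 lists, 38268377 to 38271699, lay 11.4 kb upstream and was 3323 bp wide. The highest fold enrichment of this wide region was 20.4 with dexamethasone, 18.9 with estradiol, 16.7 with the combination and 14.3 with vehicle, each against its own control scaling. With dexamethasone it was split into 4 peaks, with a summit of rank 1628 of 15192 in that list.

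The next region upstream of NR1D1, 38277429 to 38279936, was among the strong acetylated regions of the vehicle list (fold enrichment 25.0, rank 1902 of 21120). It was called with estradiol (24.6) and the combination (14.5) and not with dexamethasone. Another region 36.9 kb from the start on the other side followed the same pattern, and the region at 38.7 kb upstream was called in all 4 lists. MED24, THRA, MSL1 and CASC3 neighbour NR1D1 closely, and regions in this window can belong to them. The nearest GR site was 389 kb from NR1D1 with dexamethasone and 222 kb with the combination, and the nearest ER site was 73.9 kb away in both ER lists.

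**Figure D3:**
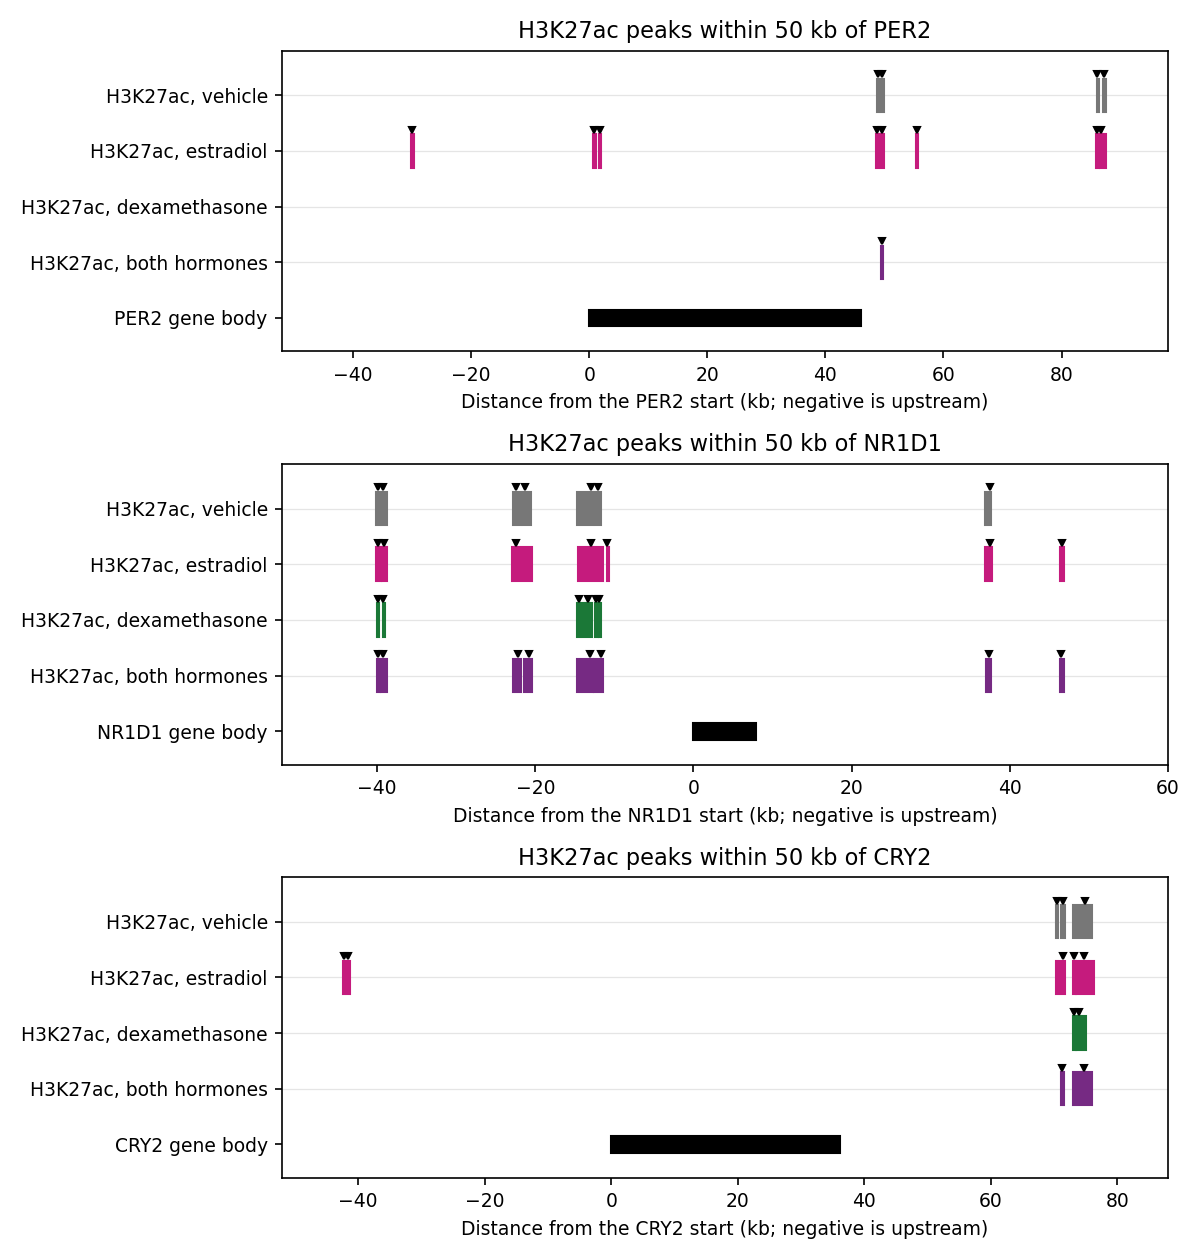
H3K27ac peaks within 50 kb of PER2, NR1D1 and CRY2, 1 row per treatment, by distance from each gene start in kb with upstream on the left; boxes span peaks (very narrow ones slightly widened), triangles mark summits and the black bar is the gene. The dexamethasone row is empty at PER2, and at NR1D1 it lacks the boxes that begin 20.5 kb upstream in the other rows.

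BHLHE40 was the only clock gene with an ER site, and the only one acetylated at its start with vehicle. The gene lies on chromosome 3 from 5021097 to 5026865 on the plus strand. The ER site, 5019961 to 5020305, was called with estradiol, with its summit 1042 bp upstream, a fold enrichment of 14.2 and rank 2102 of 3560. It was not called with the combination, where 61.8% of estradiol ER sites were called. In the part of the estradiol list from 50% to 75% by strength, which holds this site, the share was 44.8%. It overlapped no GR site of dexamethasone (background 10.0%) or of the combination (19.7%), and the nearest GR site of either list was 3510 kb away.

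H3K27ac covered the start region of BHLHE40 with vehicle in a pair of wide peaks. The upstream peak had a fold enrichment of 30.5 with estradiol, 23.0 with vehicle, 19.8 with the combination and 8.41 with dexamethasone. The peak at the first part of the gene had 23.4 with vehicle, 30.5 with estradiol and 15.4 with the combination, and was not called with dexamethasone. It began at 5021097 with vehicle, the start base itself, at 5021106 with estradiol and at 5021172 with the combination. Only the vehicle peak thus reached the start base, by a small shift of the peak edge. The width of the upstream peak was 1755 bp with vehicle, 2269 bp with estradiol, 893 bp with the combination and 245 bp with dexamethasone. A weaker region 7.03 kb into the locus (7.82 with vehicle) was also missing with dexamethasone only. Acetylated sequence within 5 kb of the start was 3593 bp with estradiol, 2788 bp with vehicle, 1874 bp with the combination and 245 bp with dexamethasone. The lists as a whole covered 24.2, 18.0, 20.3 and 12.4 Mb in the same order, and as elsewhere the fold enrichments of different lists stand side by side without a comparison of level.

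The BHLHE40 start peak was strong in the vehicle list, at rank 2195 of 21120. Of the strongest 25% of vehicle peaks, 22.1% had no dexamethasone peak and 0.738% had no combination peak. In the 6 windows, 3 of 7 vehicle peaks of this class had no dexamethasone peak, and 0 of 7 had no combination peak. The 3 were the BHLHE40 start peak and a pair upstream of NR1D1. That pair falls in 1 merged region, so the 3 peaks are not separate cases. The ER site lay wholly inside the H3K27ac peak of vehicle and of estradiol (345 bp each), shared 86 bp with that of the combination and did not meet the dexamethasone peak. Over all estradiol ER sites, 36.8% overlapped H3K27ac with vehicle, 50.6% with estradiol, 46.5% with the combination and 27.5% with dexamethasone.

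**Figure D4:**
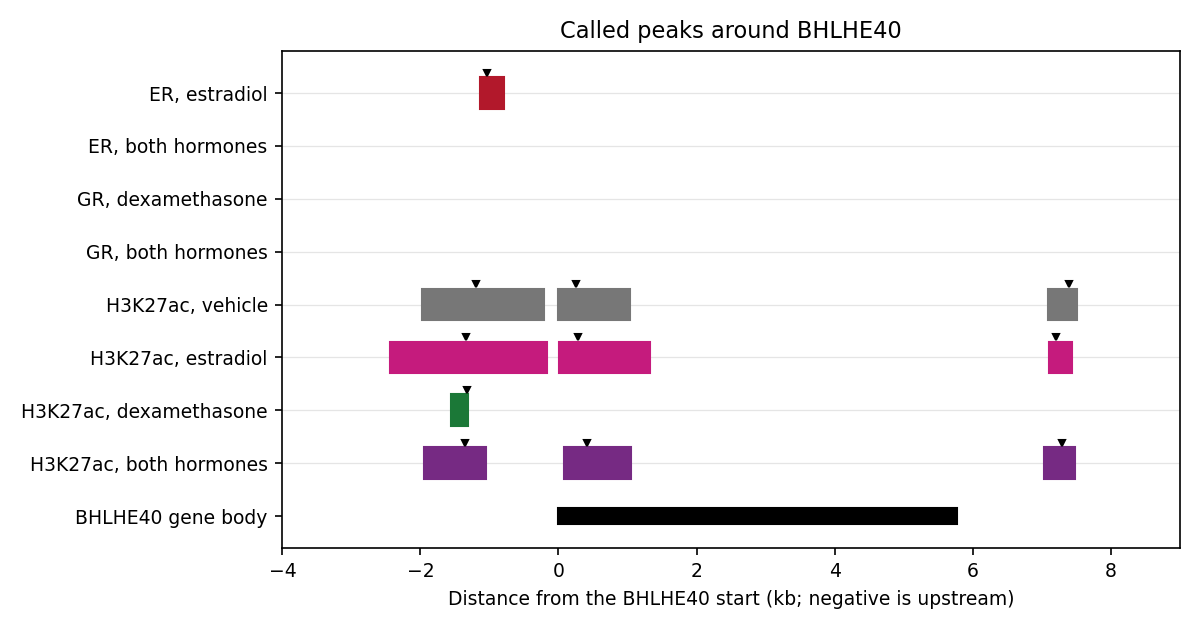
Called peaks around BHLHE40, 1 row per list, by distance from the gene start in kb with upstream on the left; boxes span peaks, triangles mark summits and the black bar is the gene. The ER box appears in the estradiol row only, and the dexamethasone row has a single 245 bp H3K27ac box where the other H3K27ac rows have 3 boxes.

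PER1 and BHLHE40 differed in their H3K27ac calls near the start. Near PER1, 2 regions were present with dexamethasone and absent with vehicle, and the weak vehicle region at 4.45 kb was missing with dexamethasone. The count of 2 became 1 with the stronger 50% of each list and under a stricter presence rule (−log10 q of at least 20), since the peak inside the gene had a −log10 q of 19.7 and rank 9175 of 15192. Near BHLHE40, the region at the start was present with vehicle and absent with dexamethasone, while the merged region upstream was called in all 4 lists. The near edge of that region, 0.17 kb from the start, was set by the estradiol peak. Its dexamethasone peak (fold enrichment 8.41) lay 1.31 kb from the gene, and its combination peak lay 1.05 kb from it. The combination list held peaks next to both starts. Whether the treatments differ in acetylation level at either gene cannot be tested with 1 library each.

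Over the 6 genes the windows held 33 merged H3K27ac regions, of which 28 were called with estradiol, 21 with vehicle, 19 with the combination and 8 with dexamethasone. Of the 21 vehicle regions, 15 were missing with dexamethasone (71.4%, exact Clopper-Pearson 95% interval 47.8 to 88.7), where 54.2% of all vehicle regions were missing. This interval contains the background share. With the combination 7 of 21 were missing (33.3%, 14.6 to 57.0; background 23.1%), and with estradiol 1 of 21 (4.76%, 0.12 to 23.8; background 7.06%). Of the 15 regions missing with dexamethasone, 8 were called with the combination (53.3%, 26.6 to 78.7; background 60.5%). The intervals cover counting error over regions only. They treat regions as independent, although the 21 vehicle regions lie in 5 windows, 8 of them at PER1, so they can be too narrow. They describe the counts and are not a test between treatments.

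Of 8 dexamethasone regions, 2 were absent with vehicle (25.0%, 3.19 to 65.1; background 26.7%). The same held for 8 of 28 estradiol regions (28.6%, 13.2 to 48.7; background 26.5%) and 5 of 19 combination regions (26.3%, 9.15 to 51.2; background 22.9%). These intervals contain the background but are too wide to set the windows apart from it, so no conclusion is drawn. The 8 estradiol regions lay near PER2 (4), NR1D1 (2) and CRY2 (2). The most common pattern, in 8 of 33 regions, was presence in every list but dexamethasone (background 21.0%). Estradiol alone followed with 7 (background 14.4%), 6 were seen with vehicle and estradiol only (background 11.2%), and 6 were in all 4 lists (background 27.7%, the most common pattern over the genome).

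**Figure D5:**
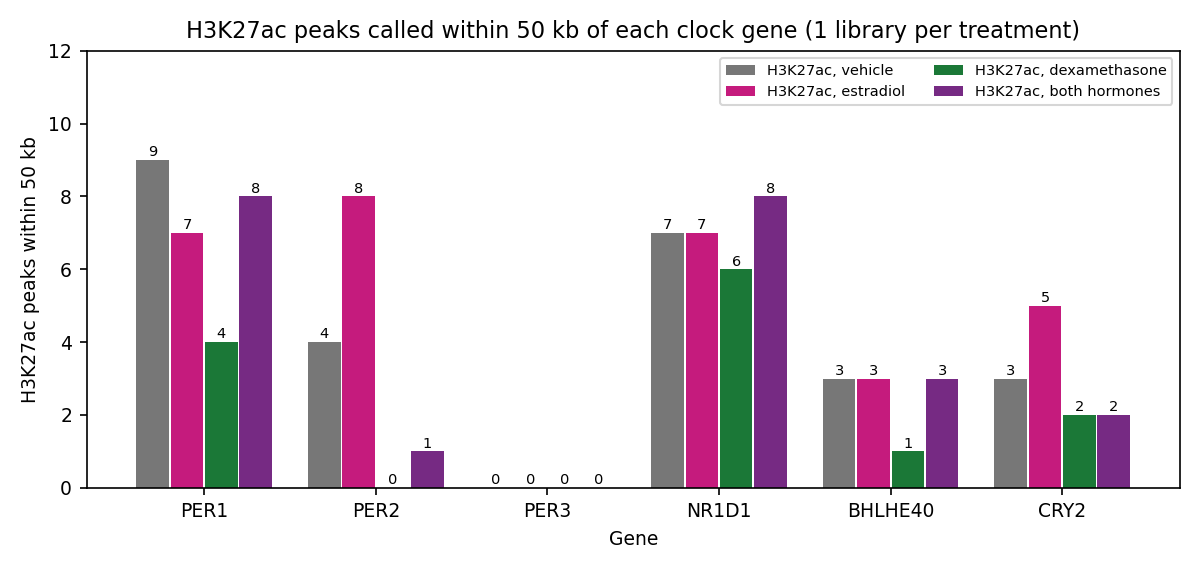
Number of H3K27ac peaks called within 50 kb of each clock gene, 1 bar per treatment, 1 library each. Dexamethasone has the lowest bar at PER1 (4), PER2 (0), NR1D1 (6) and BHLHE40 (1) and shares the lowest at CRY2 (2), and PER3 has no peak with any treatment. Peaks are counted before merging: the 6 dexamethasone peaks at NR1D1 fall in 2 merged regions, and the 2 at CRY2 in 1. The dexamethasone list was also the shortest H3K27ac list, with 15192 peaks.

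Among the 6 windows, only that of PER1 held a GR site with dexamethasone and with the combination. Tiles of the genome as wide as the median window (124 kb), which include gene-poor sequence, held a GR site in 5.54% of cases with dexamethasone and 4.97% with the combination. An ER site was held by 1 of 6 windows with estradiol (tiles, 9.06%) and 0 of 6 with the combination (6.6%). H3K27ac was called in 5 of 6 windows with vehicle (29.7% of tiles), 5 with estradiol (32.9%), 5 with the combination (29.0%) and 4 with dexamethasone (19.6%).

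The 50 kb limit did not decide which genes had a GR site, and a limit of 100 kb would add an ER site to NR1D1. The farthest receptor site inside a window was 1.94 kb from its gene body, at PER1, and the closest one outside was 73.9 kb away, an ER site near NR1D1. Among H3K27ac peaks, the farthest inside was 42.1 kb from its gene (CRY2, fold enrichment 7.20) and the closest outside was 57.3 kb away (PER1, vehicle and estradiol).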

How the data were processed

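ER, GR and H3K27ac ChIP-seq peak lists of 8 of the 11 samples were used; the remaining 3 (vehicle ER, vehicle GR and the control library) were not analysed here as lists. The submitters' processing notes name Bowtie 1.1.2, MACS2 2.1.0.20140616 and the hg19 build. MACS2 set each library against a control at a p cutoff of 1e-10, kept 1 tag per position and scaled the larger of the 2 libraries down, per the file headers. The control held 3479280 usable tags for the ER lists, 5735043 for the GR lists and 14002417 for the H3K27ac lists. Fold enrichments of ER, GR and H3K27ac are thus over different controls. Whether a list pools cultures is not given in the sources used here.

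The deposited pileup is a signal, the scaled fragment coverage at the summit, and the deposited fold enrichment is the ratio of that pileup to local background, per the file headers. The authors deposited peak significance as −log10 of the p-value and q-value. These values rank or describe peaks within a list and were not compared between lists.

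Windows of 50 kb around the hg19 gene bodies were intersected with each list, with an overlap of at least 1 bp, in Python 3.11.15 with pandas 2.3.3. Overlapping or bookended H3K27ac peaks of the 4 lists were merged into 27111 regions, scored as present or absent in each list. No test between treatments was possible with 1 library per group. The overlap code was tested on simulated intervals. All receptor peaks in the windows are described, with H3K27ac regions at gene starts, at receptor sites or differing between vehicle and dexamethasone; others are given by count. The genes, windows and lists were chosen with earlier results of these data known. Strand, neighbouring genes and promoters come from RefSeq (GRCh38.p14), by symbol, for 6 of 6 genes; no hg19 annotation was used, so other clock genes and genes like PER1 were not analysed here.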

Additional observations from a re-analysis of the deposited data

How the results depend on the processing

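The 2 PER1 GR sites were combination GR sites, and 0 overlapped a combination ER site, with windows of 10 or 100 kb, with each list cut to its stronger 50%, with lists cut to equal length, with summits within 100 bp and with intervals within 1 kb. PER1 was the 1 gene with a dexamethasone GR site under both windows and both cuts. The 2 H3K27ac regions called with dexamethasone and not with vehicle became 1 with the stronger 50% of each list and 1 under the stricter presence rule (−log10 q of at least 20 for presence, no peak within 1 kb for absence), since fewer peaks qualify. With equal lengths they numbered 3. The 15 regions called with vehicle and not with dexamethasone became 6 with a 10 kb window, 24 with a 100 kb window and 7 with the stronger 50% of each list, and they numbered 11 with equal lengths and 10 under the stricter rule. Among the H3K27ac libraries, vehicle and dexamethasone differed most in depth (18508574 and 9034395 usable tags), while the combination library was close to dexamethasone in depth (9657258) with more peaks (20873 against 15192). The part of depth in the regions missing with dexamethasone was not tested. No paired analysis was possible because each group has 1 library.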
